A study of Rattus norvegicus with 28 samples.

Results

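Gene expression in Med14 S983A cells after 16 h of exendin-4 (Ex-4) was described from 4 of the 28 bulk RNA-seq libraries of the series. The 2 libraries labelled Med14 S983A with 16 h of Ex-4 were compared with the 2 Med14 S983A libraries left untreated (CON). The cells were INS-1, a line grown from a rat insulinoma, which makes, stores and secretes insulin. The S983A genotype is a CRISPR-Cas9 knock-in that replaces a serine of Med14 with alanine, and WT is the same line with Med14 unchanged. Cells were moved to serum-free medium before treatment. Ex-4 was given at 10 nM and forskolin (FSK) at 10 µM. Beside the 4 libraries, the comparisons below used WT CON, WT with 16 h of Ex-4, S983A with 8 h of Ex-4 and S983A with 16 h of FSK, each with 2 libraries. The study used 2 independently generated knock-in lines, and the labels do not say which line a replicate came from. They also do not say that replicates were separate cultures, so p-values measure only the spread between these libraries.

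Ex-4 is an agonist of the GLP-1 receptor, which raises cAMP in beta cells through adenylyl cyclase, and FSK activates adenylyl cyclase directly. cAMP frees protein kinase A, which phosphorylates the transcription factor CREB and switches on a first wave of genes that includes AP-1 factors, phosphodiesterases and other feedback regulators, followed over hours by genes of metabolism, secretion and survival. Med14 is the scaffold subunit of Mediator, the complex that links DNA-bound factors to RNA polymerase II, and the study asked whether the serine that protein kinase A phosphorylates in it shapes the late genes.

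The 4 libraries held 46119925 to 50597273 fragments. Levels are given in TPM, a unit scaled for transcript length and for the sum of each library. Replicates correlated with a Pearson r of 0.998 over genes in both groups and differed by more than counting noise. Spiked-in control RNA (ERCC, a set of synthetic transcripts) took 0.836% and 0.818% of fragments in CON and 0.955% and 0.819% at 16 h, so replicate 1 at 16 h stood above the other 3. Beta cell markers led the libraries, with 9 of 10 listed genes in the table. They summed to 76200 and 84730 TPM in CON and 70270 and 69480 TPM at 16 h, and 5 of the 9 were called lower by the rule given below. Of the markers of other cells, the alpha cell list summed to 32.6 and 34.9 TPM in CON and 49.8 and 48.1 TPM at 16 h, with 5 of its 7 genes under 1 TPM and Irx2 and Pou3f4 at 0 in all 4 libraries. The acinar list summed to 66.9 and 66.8 TPM in CON and 175.8 and 169.6 TPM at 16 h, with 6 of its 12 genes, among them Prss1 and Pnlip, at 0 in all 4 libraries. Markers of delta, endothelial and blood cells stayed under 1 TPM. Med14, at 10964035 to 11080894 of rn6 chromosome X (NM_001191727), had 19.6 and 20.3 TPM in CON and 21.1 and 19.8 TPM at 16 h. Its log2 change was 0.03 (SE 0.07, limma adjusted p 0.704), and since 1 residue was changed the level does not check the genotype.

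At 16 h of Ex-4, genes of Med14 S983A cells had moved in both directions. A gene was called when limma, fitted to log2(TPM + 1) values of all 28 libraries, gave an adjusted p below 0.05 with more than 1.5-fold change. Groups of 2 libraries will mostly not overlap for a called gene. Statements below that groups did not overlap thus describe the libraries and add no support to a call. How often groups did not overlap over all genes was not counted. Of 10275 genes tested, 486 were higher (4.73%) and 735 lower (7.15%) at 16 h than in CON. The genes with the largest rises were led by stress-linked and cAMP-linked genes, and those with the largest falls by Txnip and a metallothionein. In a bulk sample, fewer cells that make a transcript and less transcript per cell cannot be told apart. The balance of the counts moved with the scaling. With each library centred on its median, 573 genes were higher and 596 lower, and with scaling on the ERCC counts 377 were higher and 1042 lower, so that 39.8%, 49.0% and 26.6% of calls were rises. The median log2 change of all genes was −0.06 in TPM, 0.00 after centring and −0.16 with ERCC scaling, and changes below are in TPM and thus relative to −0.06. Without replicate 2 at 16 h the ERCC-scaled counts were 298 higher and 1522 lower, and without replicate 1 they were 471 higher and 792 lower.

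**Figure D1:**
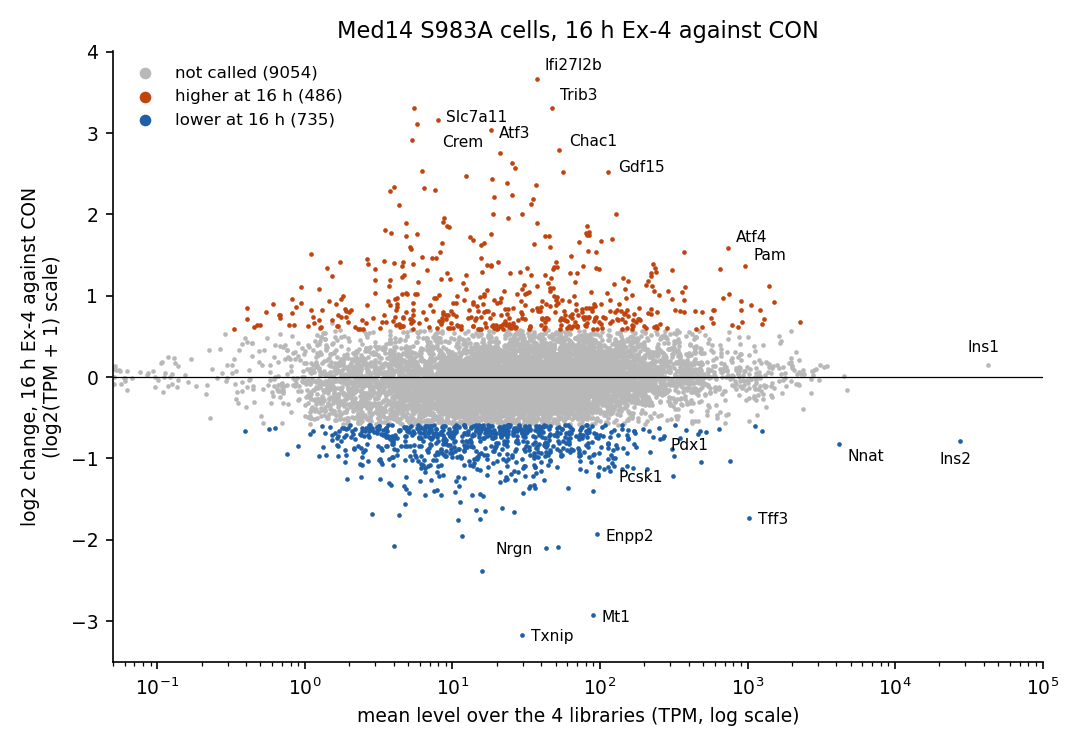
Each point is 1 of the 10275 genes tested, with the mean of the 4 Med14 S983A libraries in TPM on a log axis and the log2 change of 16 h Ex-4 against CON on the vertical axis. Red points were called higher (486) and blue points lower (735), and Ins1 and Ins2 stand at the far right with changes of 0.15 and −0.79.

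The largest rise among genes of at least 10 TPM on average was that of Ifi27l2b, an interferon-inducible gene. Ifi27l2b had 3.78 and 5.45 TPM in the CON libraries and 69.2 and 70.1 TPM in the 16 h libraries, which is 3.67 on the log2 scale (SE 0.14, limma adjusted p 5.41e-17). The groups stood far apart and did not overlap. The next were Trib3, a pseudokinase induced by stress, at 3.30, Atf3, a stress-induced transcription factor, at 3.04, Chac1, which degrades glutathione, at 2.79, and Crem, a cAMP-responsive factor and repressor, at 2.75. Gcg, which encodes glucagon and GLP-1, went from 6.09 and 6.56 TPM in CON to 45.5 and 43.4 TPM at 16 h (log2 change 2.64, limma adjusted p 5.60e-20). Both 16 h libraries were several times above both CON libraries, while other genes that define alpha cells, such as Irx2 and Pou3f4, were at 0 as given above. Other rises were 2.57 for the orphan receptor Nr4a1, 2.52 for the stress-induced hormone Gdf15, 2.47 for the cation channel Trpa1, 2.43 for the inflammatory caspase Casp4 and 2.39 for Tent5a, which lengthens poly(A) tails. Gdf15 was uneven at 16 h, with 162 and 227 TPM against 29.6 and 36.2 TPM in CON, and its groups did not overlap.

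Txnip showed the largest fall. This inhibitor of thioredoxin, which is raised by glucose and lowered by cAMP signals in beta cells, had 55.9 and 52.9 TPM in CON and 5.93 and 4.49 TPM at 16 h (log2 change −3.17, SE 0.08, limma adjusted p 6.81e-20). The CON libraries held about 10 times the level of the 16 h libraries. Mt1, a metal-binding metallothionein, fell from 152 and 166 TPM to 16.2 and 24.5 TPM (−2.93 on the log2 scale). Its 16 h libraries lay well below CON. The trefoil peptide Tff3 was by far the most abundant of these genes, and fell from 1575 and 1586 TPM to 476 and 473 TPM (log2 change −1.73). Other large falls were those of Nrgn (−2.10), which binds calmodulin, Rph3a (−1.96), a Rab effector of vesicle docking, Enpp2 (−1.93), which makes lysophosphatidic acid, Igfbp1 (−1.76), which binds insulin-like growth factors, Phkg1 (−1.75), a subunit of phosphorylase kinase, Fstl4 (−1.66) and the adenosine receptor Adora2b (−1.64). Nrtn, the neurotrophic factor neurturin, had a log2 change of −2.09 (SE 0.23), and its 16 h replicates lay apart at 11.3 and 30.4 TPM, both below the 72.9 and 94.0 TPM of CON.

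Nearly all ATF4 target genes rose. ATF4 is a transcription factor of the integrated stress response, made when translation initiation is slowed, and it induces genes of amino acid uptake, amino acid synthesis, transfer RNA charging and, under lasting stress, cell death. Of 24 listed ATF4 targets tested, 23 were higher and 0 lower, against 4.73% of all genes higher, and their median log2 change was 1.34, beside −0.06 over all genes. With ERCC scaling 22 were higher. Sesn2, at 0.42, was the member not called.

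**Figure D2:**
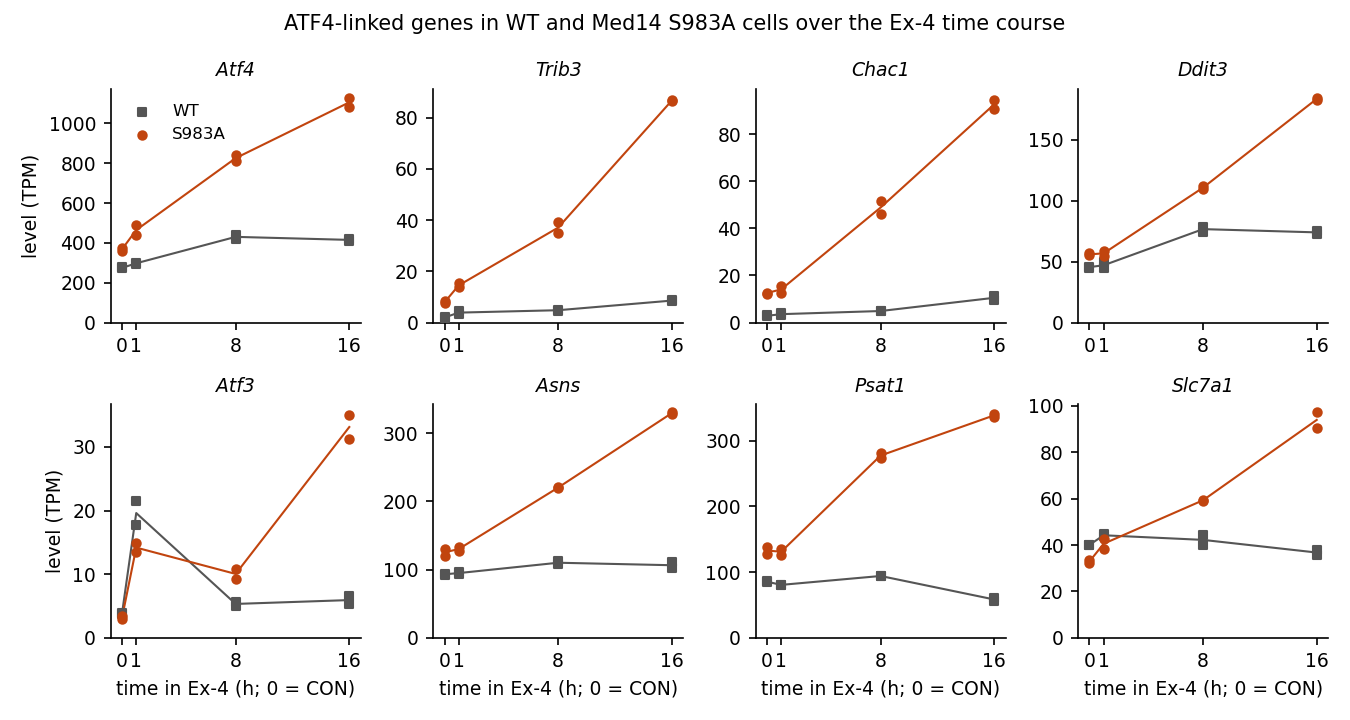
Levels in TPM of 8 genes of the ATF4 list over the hours of Ex-4, with CON at 0 h, in WT (grey squares) and Med14 S983A (red circles). Points are libraries and lines join the means of 2. At 16 h every S983A library lies above every WT library, and in Med14 S983A all 8 genes were higher at 16 h than at 8 h, and all but Atf3 were higher at 8 h than at 1 h.

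Atf4 itself had 376 and 360.4 TPM in CON and 1130.2 and 1082 TPM at 16 h (log2 change 1.58, SE 0.05, limma adjusted p 1.11e-18). Both 16 h libraries were near 3 times CON. Atf5, a related factor of the same stress response and the most abundant member, went from 843 and 908 TPM to 1915 and 1898 TPM (log2 change 1.12). Trib3 (NM_144755, rn6 chromosome 3, 147814066 to 147819650), which binds ATF4 and restrains it, had 7.51 and 8.27 TPM in CON and 86.5 and 87.0 TPM at 16 h (log2 change 3.30, SE 0.09, limma adjusted p 1.89e-19). Its 16 h libraries were 10-fold and more above CON and close to each other. Chac1 had 12.3 and 12.7 TPM in CON and 94.6 and 90.8 TPM at 16 h, and Slc7a11, the cystine transporter, 0.900 and 0.704 TPM and 16.5 and 13.8 TPM (log2 change 3.16). Ddit3, which encodes the death-linked factor CHOP, had 55.0 and 56.8 TPM in CON and 182 and 185 TPM at 16 h (log2 change 1.70). None of these groups overlapped. On rn6 the end of Ddit3 overlaps that of Mars1 on the other strand. The library kit keeps strand, but whether the counting used it is not given in the sources used here.

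Genes of amino acid supply made up much of the list. Psat1, of serine synthesis, went from 139 and 127 TPM to 341 and 336 TPM (log2 change 1.34, limma adjusted p 9.37e-18). Asns, which makes asparagine, went from 129.8 and 121 TPM to 328 and 330.2 TPM (log2 change 1.39), and Slc7a1, which carries arginine and lysine, from 33.5 and 32.4 TPM to 97.4 and 90.5 TPM (log2 change 1.48). In each case both 16 h libraries were more than 2-fold above both CON libraries. Further rises on the log2 scale were 2.22 for Aldh1l2, 1.19 for Mthfd2 and 1.14 for Shmt2, enzymes of mitochondrial folate metabolism, 1.39 for Cth, of cysteine synthesis, and 1.24 and 1.08 for Slc3a2 and Slc7a5, which together form a transporter of large neutral amino acids. Apart from Atf3, Atf4, Atf5, Trib3, Chac1, Slc7a11 and Psat1, the members of this list were named after their values were seen.

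Genes that charge transfer RNA moved in the same direction. Of 18 cytosolic aminoacyl-tRNA synthetases, 11 were higher and 0 lower, against 4.73% and 7.15% of all genes. Their median log2 change was 0.83, beside −0.06 over all genes, and the count was also 11 after centring and with ERCC scaling. Sars1, for serine, had 242 and 234 TPM in CON and 504 and 526 TPM at 16 h (log2 change 1.11, SE 0.03, limma adjusted p 8.32e-19). Nars1, for asparagine, had 149 and 135 TPM and 314 and 304 TPM (log2 change 1.12). Eprs and Tars1 had log2 changes of 1.06 and 1.03. Their 16 h libraries were about 2 times CON, with replicates close together. Gars and Yars1, 2 of the 3 most abundant, were at 0.80 and 0.95. The members not called ran from −0.14 for Qars1 to 0.46 for Vars1.

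Promoters of both lists were searched for the element at which ATF4 pairs with C/EBP proteins, since so many members moved together. Windows of RefSeq on GRCr8 reach from 250 bases before to 50 after each gene start. The letters TGATGNAA, read on both strands, were found in 1332 of 33469 windows (3.98%), in 4 of 22 ATF4 list genes with a window (18.2%) and in 7 of 15 tRNA synthetases with a window (46.7%). A list gene counts if any of its windows holds the letters, while the overall share is of single windows. The list shares are thus not like for like with it and can be raised by genes with several windows. All 7 of those synthetases were called higher, as were 3 of the 8 without the letters, and of the ATF4 list 4 of 4 with and 17 of 18 without them were called higher. The stretches around the match are shown for the 3 ATF4 targets with the largest changes among those that hold it and for 3 of the 7 synthetases, all chosen after their values were seen. Capitals mark the match, which in Trib3, Chac1, Tars1 and Mars1 lies on the opposite strand and so shows as its complement read backwards. A match is a description of the sequence and not a shown binding site.
Trib3, chr3:161275507-161275594, minus strand: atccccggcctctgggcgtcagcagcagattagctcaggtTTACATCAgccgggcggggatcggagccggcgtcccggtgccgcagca
Chac1, chr3:126795924-126796011, plus strand: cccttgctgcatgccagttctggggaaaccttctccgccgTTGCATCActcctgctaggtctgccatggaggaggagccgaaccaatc
Slc7a1, chr12:11664418-11664505, plus strand: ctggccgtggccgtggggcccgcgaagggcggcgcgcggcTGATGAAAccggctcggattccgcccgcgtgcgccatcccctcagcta
Tars1, chr2:62114782-62114869, minus strand: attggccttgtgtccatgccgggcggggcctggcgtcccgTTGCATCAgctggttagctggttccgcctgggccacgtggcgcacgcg
Mars1, chr7:65023723-65023810, minus strand: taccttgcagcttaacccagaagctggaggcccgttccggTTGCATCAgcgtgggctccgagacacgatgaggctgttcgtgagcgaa
Yars1, chr5:146820161-146820212, plus strand: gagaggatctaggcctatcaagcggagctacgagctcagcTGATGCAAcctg

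Gene lists of the endoplasmic reticulum (ER), which folds secreted proteins such as insulin, moved less than the ATF4 list. Of 24 ER folding chaperones, 2 were higher and 1 lower, against 4.73% and 7.15% of all genes, so calls were near that share. Of the 24, 23 had a log2 change above 0, and the median was 0.44. Dnajb9, a cofactor of the chaperone BiP, rose from 50.9 and 44.1 TPM to 94.8 and 84.3 TPM (log2 change 0.90), and P4hb, which forms disulfide bonds, from 999 and 954 TPM to 1628 and 1573 TPM (0.71). Ero1b, the oxidase of proinsulin folding, fell from 81.1 and 71.8 TPM to 45.8 and 43.4 TPM (−0.76). None of these 3, all of them called, overlapped between groups. Hspa5, which encodes BiP itself, had 1982 and 1816 TPM in CON and 2422 and 2258 TPM at 16 h, a log2 change of 0.30 that passed the p threshold but not the fold threshold. Of 20 sensors and degradation factors of the unfolded protein response, 6 were higher and 1 lower. The kinase sensors Ern1 and Eif2ak3 were at 0.94 and 0.59 (the latter not past the fold threshold with ERCC scaling), the degradation factors Selenos and Ube2j1 at 1.01 and 0.76, and Derl3, a channel of ER degradation, at −0.84. Xbp1 had 269 and 256 TPM in CON and 292 and 286 TPM at 16 h (0.14), a difference below the fold threshold. Of 48 genes of the translocon, COPII vesicles and the Golgi, 9 were higher and 0 lower (median 0.41, 14 higher after centring and 6 with ERCC scaling). They included Creb3l1, a membrane-bound factor that drives secretory genes, which rose from 21.04 and 23.1 TPM to 66.6 and 71.2 TPM (1.60), Ostc (0.83), Ssr2 (0.83) and Tmed3 (0.81).

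Many early cAMP genes were still raised at 16 h. Of 20 CREB feedback and early cAMP target genes, 11 were higher and 0 lower, against 4.73% of all genes higher (median 0.62, 9 higher with ERCC scaling), and of 8 AP-1 genes, 4 were higher and 0 lower (median 0.50, 3 higher with ERCC scaling). Of these genes 6 and 4 are among those the study names from these libraries, so the counts are not independent evidence of their direction. Crem had 5.48 and 3.97 TPM in CON and 38.8 and 35.9 TPM at 16 h (log2 change 2.75, SE 0.08, limma adjusted p 4.04e-19). Nr4a1 had 6.53 and 7.36 TPM in CON and 50.3 and 42.4 TPM at 16 h (log2 change 2.57). At 1 h of Ex-4 these genes had stood higher still, at 232 and 228 TPM for Crem and 353 and 412 TPM for Nr4a1. Sik1, a kinase that sends CREB coactivators out of the nucleus, had 1.71 and 1.27 TPM in CON, 94.4 and 91.7 TPM at 1 h and 9.16 and 7.32 TPM at 16 h. The 16 h libraries of all 3 genes lay between CON and 1 h. The coactivator Ppargc1a rose by 1.76 on the log2 scale, the phosphodiesterases Pde10a and Pde4d by 1.46 and 0.72, the insulin signalling adaptor Irs2 by 0.73 and the G protein regulator Rgs2 by 0.63. Rgs2 did not pass the fold threshold with ERCC scaling. Dusp1, a phosphatase of stress kinases, had 17.3 and 16.9 TPM in CON and 16.9 and 15.9 TPM at 16 h, with groups that overlapped (log2 change −0.06, limma adjusted p 0.349).

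Among AP-1 genes, Fosl2 had 1.36 and 1.57 TPM in CON and 11.3 and 11.4 TPM at 16 h (log2 change 2.33, SE 0.08, limma adjusted p 9.37e-18). Fos had 0.993 and 0.958 TPM and 7.11 and 4.91 TPM (log2 change 1.81), and Junb 10.2 and 11.7 TPM and 20.2 and 22.5 TPM (log2 change 0.90). The groups did not overlap for any of the 3, and all stayed at low levels. Jun rose by 0.59 in TPM and fell short of the fold threshold with ERCC scaling, while Jund (0.31), Batf3 (0.14) and Fosl1 (0.09) were not called.

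The cAMP response element was searched for in the same windows because Crem led this list. The full element TGACGTCA was found in 612 of 33469 windows (1.83%) and in 5 of 17 genes of the CREB list with a window (29.4%), of which 2 were called higher, against 7 of the 12 without it. The shorter TGACG, which every full element contains, was in 21.2% of all windows and 82.4% of the list. List shares again count genes with any matching window, against single windows overall. Crem has the element in 2 of its RefSeq windows, which belong to separate start sites and of which the second holds it 2 times, and Ppargc1a in 1. Capitals mark the full element.
Crem, chr17:58984701-58984788, plus strand: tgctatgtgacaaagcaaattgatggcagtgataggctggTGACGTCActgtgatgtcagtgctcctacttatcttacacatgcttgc
Crem, chr17:58985415-58985539, plus strand: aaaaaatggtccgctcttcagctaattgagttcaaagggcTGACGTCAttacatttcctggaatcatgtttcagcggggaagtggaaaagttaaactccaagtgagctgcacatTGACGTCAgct
Ppargc1a, chr14:63634087-63634174, plus strand: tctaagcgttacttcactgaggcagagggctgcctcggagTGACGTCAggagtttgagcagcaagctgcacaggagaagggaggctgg

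On the path from the GLP-1 receptor to protein kinase A, 4 of 36 genes were higher and 0 lower, against 4.73% and 7.15% of all genes. The phosphodiesterase Pde1c rose from 5.80 and 6.15 TPM to 21.9 and 21.1 TPM (log2 change 1.69, limma adjusted p 1.35e-17), Pde2a from 19.6 and 20.04 TPM to 40.5 and 37.1 TPM (0.93) and Pde3b from 67.6 and 58.7 TPM to 105 and 90.8 TPM (0.63). The anchoring protein Akap1 rose by 0.59. Their groups did not overlap, and Pde3b and Akap1 missed the fold threshold with ERCC scaling. Gnas, which encodes the stimulatory G protein subunit, had 2693 and 2977 TPM in CON and 2868 and 3198 TPM at 16 h, which overlapped. Prkaca, the catalytic subunit of protein kinase A, had a log2 change of −0.29, and Prkar1a, a regulatory subunit, of 0.37, neither past the fold threshold. Of 15 circadian clock genes, 4 were higher and 3 lower, a balance that turned to 1 and 4 with ERCC scaling. The repressor Nfil3, which cAMP also induces, rose from 7.05 and 6.76 TPM to 32.3 and 29.0 TPM (log2 change 2.00). Per3 fell from 10.2 and 10.8 TPM to 3.97 and 3.61 TPM (−1.26), Cry1 by 0.75 and Tef by 0.71 on the log2 scale.

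Insulin genes and the genes that process and store insulin did not move together. Of 19 tested, 5 were higher and 4 lower, against 4.73% and 7.15% of all genes (median 0.14). Ins1, the most abundant gene, had 38834 and 42395 TPM in CON and 45426 and 44611 TPM at 16 h (log2 change 0.15, SE 0.05, limma adjusted p 0.0206). The 16 h libraries were above CON by less than the fold threshold. Ins2, the other rat insulin gene, had 32620 and 37516 TPM in CON and 20103 and 20500 TPM at 16 h (log2 change −0.79, SE 0.06, limma adjusted p 1.25e-11). Both 16 h libraries were well below both CON libraries. The 2 insulin genes are close copies, so how reads were split between them is uncertain. Pcsk1, the convertase that cuts proinsulin first, fell from 173 and 152 TPM to 77.8 and 66.9 TPM (log2 change −1.16), while Pcsk2, the other convertase, had 739 and 737 TPM and 847 and 835 TPM (0.19, not called). Slc30a8, which carries zinc into granules, fell from 817 and 749.9 TPM to 530.2 and 479 TPM (−0.63, not called after centring), and Nnat, a proteolipid of the ER, by 0.82. The members called higher were Pam, Ptprn, Chgb, Vgf and Scg3. Pam, which amidates peptides, rose from 554 and 519 TPM to 1424 and 1344 TPM (log2 change 1.37, limma adjusted p 3.47e-18), the granule membrane protein Ptprn from 361 and 378 TPM to 925 and 935 TPM (1.33) and the granin Chgb from 176 and 176 TPM to 442 and 440.4 TPM (1.32). For all 3 the 16 h libraries were more than 2 times CON and the groups did not overlap. Vgf rose by 1.33 and Scg3 by 0.83. Iapp, which is stored with insulin, had 3213 and 3328 TPM in CON and 3762 and 3433 TPM at 16 h (0.14, not called).

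**Figure D3:**
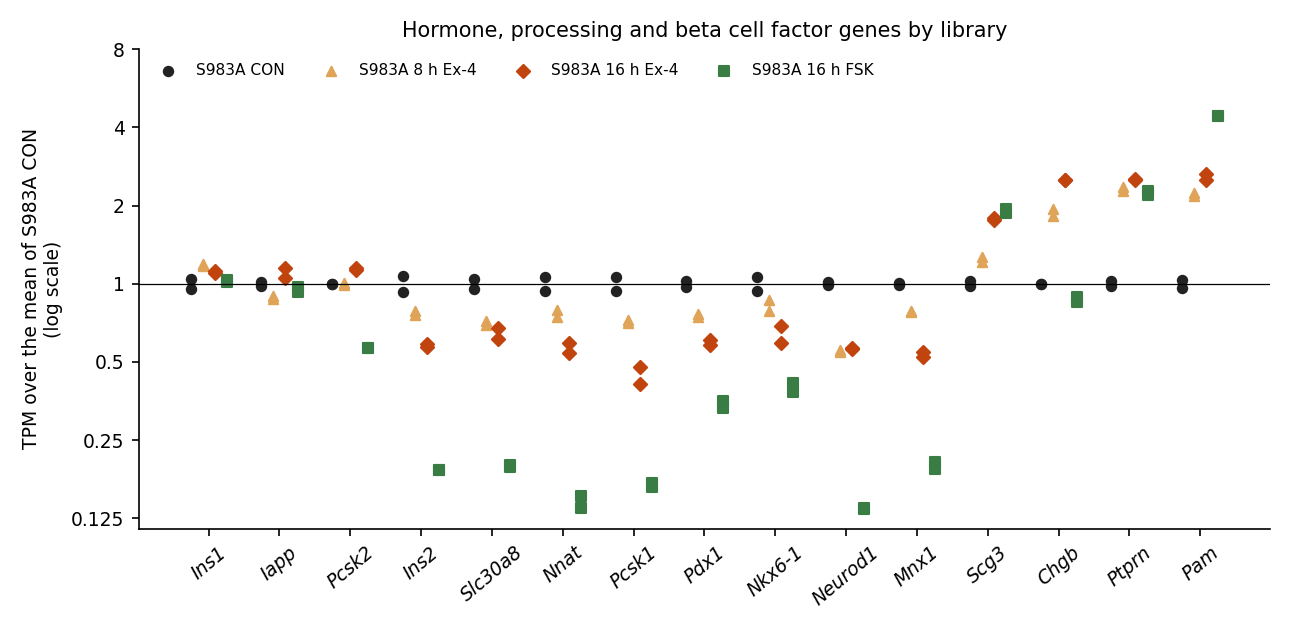
TPM of 15 hormone, granule and transcription factor genes in single Med14 S983A libraries, divided by the mean of the CON group and drawn on a log axis (black circles CON, yellow triangles 8 h Ex-4, red diamonds 16 h Ex-4, green squares 16 h FSK). At 16 h of Ex-4, Ins2 to Mnx1 lie below 1 and Scg3 to Pam above it, and Ins1 lies at 1.11, the ratio of its means.

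Among transcription factors of beta cells more were called lower than higher. Of 23 tested, 1 was higher, 6 were lower and 16 were not called, against 7.15% of all genes lower, with a median of −0.30 beside −0.06 over all genes, and 1 higher with 5 lower after centring. Pdx1, which drives insulin transcription, had 324 and 342 TPM in CON and 194 and 203 TPM at 16 h (log2 change −0.74, SE 0.04, limma adjusted p 3.12e-14). Neurod1 had 215 and 221 TPM and 124 and 122 TPM (−0.82), Mnx1 78.6 and 77.5 TPM and 40.7 and 42.5 TPM (−0.89), and Mlxipl, the glucose-responsive factor ChREBP, 209 and 218 TPM and 139 and 126 TPM (−0.69). In all 4 the 16 h libraries were lower and the groups did not overlap. Nkx6-1 was at −0.62 and not called after centring, by DESeq2 with median-of-ratios, or without CON replicate 2 or 16 h replicate 1, and Pax6, the most abundant of them, at −0.30 without passing the fold threshold. Nr0b2, a corepressor, rose from 9.11 and 9.69 TPM to 18.9 and 17.8 TPM (0.90).

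Of 25 genes of granule exocytosis, 2 were higher and 3 lower, against 4.73% and 7.15% of all genes, with 2 and 1 after centring and 2 and 5 with ERCC scaling. Syt4, a synaptotagmin that limits calcium-driven release, rose from 38.9 and 33.3 TPM to 94.7 and 83.0 TPM (log2 change 1.28, limma adjusted p 2.05e-13), and Syt5 from 98.7 and 103 TPM to 202 and 195 TPM (0.97). The Rab GTPase Rab3b fell from 142 and 147 TPM to 79.5 and 82.6 TPM (−0.83), and the Rab effector Rph3al by 0.61, the latter not called after centring. Snap25, of the membrane fusion machinery, had 251 and 234 TPM and 268 and 254 TPM, with the 16 h libraries slightly above CON (0.11, not called). Of 28 channel genes, 0 were higher and 3 lower, with Cacna1a, a voltage-gated calcium channel, at −0.71, and the potassium channels Kcnb2 and Kcnh6 at −0.69 and −0.62, the last not called after centring.

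Peptide hormones of nerve and gut rose in part. Of 11 tested, 5 were higher and 0 lower, against 4.73% and 7.15% of all genes (median 0.50). Tac1, which encodes substance P, had 8.52 and 7.76 TPM in CON and 45.0 and 39.4 TPM at 16 h (log2 change 2.24, SE 0.09, limma adjusted p 2.74e-16). Cartpt had 10.9 and 11.6 TPM and 49.2 and 47.4 TPM (2.01), Cck, cholecystokinin, 33.1 and 38.5 TPM and 122 and 127 TPM (1.77), and Gast, gastrin, 7.37 and 8.15 TPM and 29.5 and 27.8 TPM (1.76). For each of them both 16 h libraries were more than 3 times CON. Sct, secretin, had 40.1 and 41.6 TPM and 41.4 and 35.5 TPM, which overlapped. Among exocrine genes, Bhlha15, a factor of secretory cells, rose from 47.0 and 47.2 TPM to 74.2 and 69.8 TPM (0.60, not past the fold threshold with ERCC scaling), and Ctrb1, which makes chymotrypsinogen and is named by the study, stayed below 2 TPM, at 0.487 and 0.857 TPM and 1.53 and 1.76 TPM (0.67, limma adjusted p 4.05e-04).

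Most cholesterol synthesis genes rose. Of 21 tested, 14 were higher and 0 lower, against 4.73% and 7.15% of all genes. The median log2 change was 0.71, and with ERCC scaling 13 were higher. Fdps, which makes farnesyl diphosphate and is the most abundant of them, had 492 and 488 TPM in CON and 982 and 1015 TPM at 16 h (log2 change 1.03, SE 0.03, limma adjusted p 3.27e-19). Msmo1, a sterol demethylase, had 199.9 and 177 TPM and 571 and 529 TPM (1.54), and Cyp51, the lanosterol demethylase, 139.8 and 136 TPM and 348 and 329 TPM (1.29). The sterol reductase Tm7sf2 had 37.0 and 37.6 TPM and 132 and 129 TPM (1.78). The 16 h libraries were about 2 to 4 times CON for these genes. Hmgcs1, of the first committed steps and named by the study, had 90.1 and 79.9 TPM and 155 and 145 TPM (0.81). Of the 16 sterol sensing, uptake and transport genes, 4 were higher and 0 lower. Insig1, which holds the sterol sensor in the ER, rose from 137 and 122 TPM to 302 and 287 TPM (1.18) and Soat1, which esterifies cholesterol, by 0.88. Srebf1 was at 0.04.

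Of 22 fatty acid synthesis genes, 5 were higher and 0 lower, against 4.73% and 7.15% of all genes, and 1 was higher with ERCC scaling. Acss2, which activates acetate, rose from 42.9 and 41.8 TPM to 113 and 108 TPM (log2 change 1.37, limma adjusted p 3.40e-18) under each scaling. The desaturase Scd2 and the acyl-CoA synthetases Acsl4 and Acsl5 were at 0.67, 0.69 and 0.63 and missed the fold threshold with ERCC scaling. Fasn, fatty acid synthase, had 223 and 227 TPM and 322 and 313 TPM (0.49), below the fold threshold. Of 24 genes of fatty acid oxidation, 1 was higher and 1 lower, near the shares over all genes. These were the hydroxylase Cyp4a8, which went from 9.28 and 8.66 TPM to 21.8 and 28.3 TPM (1.38), and Cpt2, which went from 129.7 and 133 TPM to 78.1 and 80.0 TPM (−0.72). Of 18 glycolysis genes, 3 were higher and 0 lower. The lactate carrier Slc16a1, which mature beta cells keep low, rose from 9.78 and 9.59 TPM to 28.7 and 25.1 TPM (log2 change 1.38), Aldoa from 1020.5 and 1080.0 TPM to 1849 and 2125 TPM (0.92) and Ldhb from 20.9 and 21.4 TPM to 38.0 and 36.8 TPM (0.79). The glucose carrier Slc2a2 was at −0.57, just under the fold threshold, and was called lower with ERCC scaling. Of 30 genes of the TCA cycle and pyruvate entry, 0 were higher and 1 was lower, Pdk2, a kinase that blocks pyruvate entry, which went from 50.6 and 52.2 TPM to 19.9 and 19.7 TPM (−1.33).

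Many cell cycle genes fell. Of 35 tested, 1 was higher and 19 lower, against 7.15% of all genes lower, with a median of −0.65, and 18 were lower after centring. The mitotic kinase Plk1 had 143 and 151 TPM in CON and 63.6 and 70.2 TPM at 16 h (log2 change −1.12, SE 0.05, limma adjusted p 1.22e-16). Aurkb had 155 and 153 TPM and 69.2 and 72.8 TPM (−1.11), Ccna2 177 and 165 TPM and 79.5 and 79.8 TPM (−1.09), and Ccnb2 51.3 and 48.7 TPM and 21.7 and 23.9 TPM (−1.10). The 16 h libraries were below 1/2 of CON and did not overlap with it. Cdk1 was at −0.77, and Cdk4, of the first growth phase, had 782 and 770.2 TPM and 778 and 798 TPM, which overlapped. The member that rose was Cdk6 (1.03). Birc5, a mitotic and anti-apoptotic gene, fell from 135 and 137 TPM to 59.3 and 57.0 TPM (−1.21) and was the 1 call among 17 genes of the BCL2 family and cell death. Of 12 genes of the Txnip and ChREBP list, 2 were lower, Txnip and its relative Arrdc4 (−0.70).

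Housekeeping lists stayed near 0. Of 73 cytosolic ribosomal protein genes and 32 proteasome genes, 0 passed the fold threshold in either direction, with median log2 changes of 0.02 and 0.07. Over all genes, 4.73% were called higher and 7.15% lower. The most abundant ribosomal gene, Rplp0, had 4446 and 4608 TPM in CON and 4481 and 4619.7 TPM at 16 h. Among 79 genes of the respiratory chain and ATP synthase 1 was higher, Atp5mc1 (0.65, not past the fold threshold with ERCC scaling), and among 68 mitochondrial ribosomal genes 1 was lower, Mrpl14 (−0.71). Ribosomal genes have many near-identical copies in the genome, so how their reads were assigned is uncertain. Of 30 Mediator subunits 1 was called, Cdk19, a kinase subunit, which fell from 32.9 and 31.5 TPM to 14.3 and 14.7 TPM (log2 change −1.10). Calls were also few for antioxidant genes (1 of 22, the cystine transporter Slc7a11 of the ATF4 list) and cytosolic heat shock genes (1 of 16, Hspa12a at −0.72). On the insulin receptor path 2 of 19 were higher and 0 lower, so its share of rises was above the 4.73% of all genes. They were Irs2 and Igf1r, the latter at 0.59 and not past the fold threshold with ERCC scaling.

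**Figure D4:**
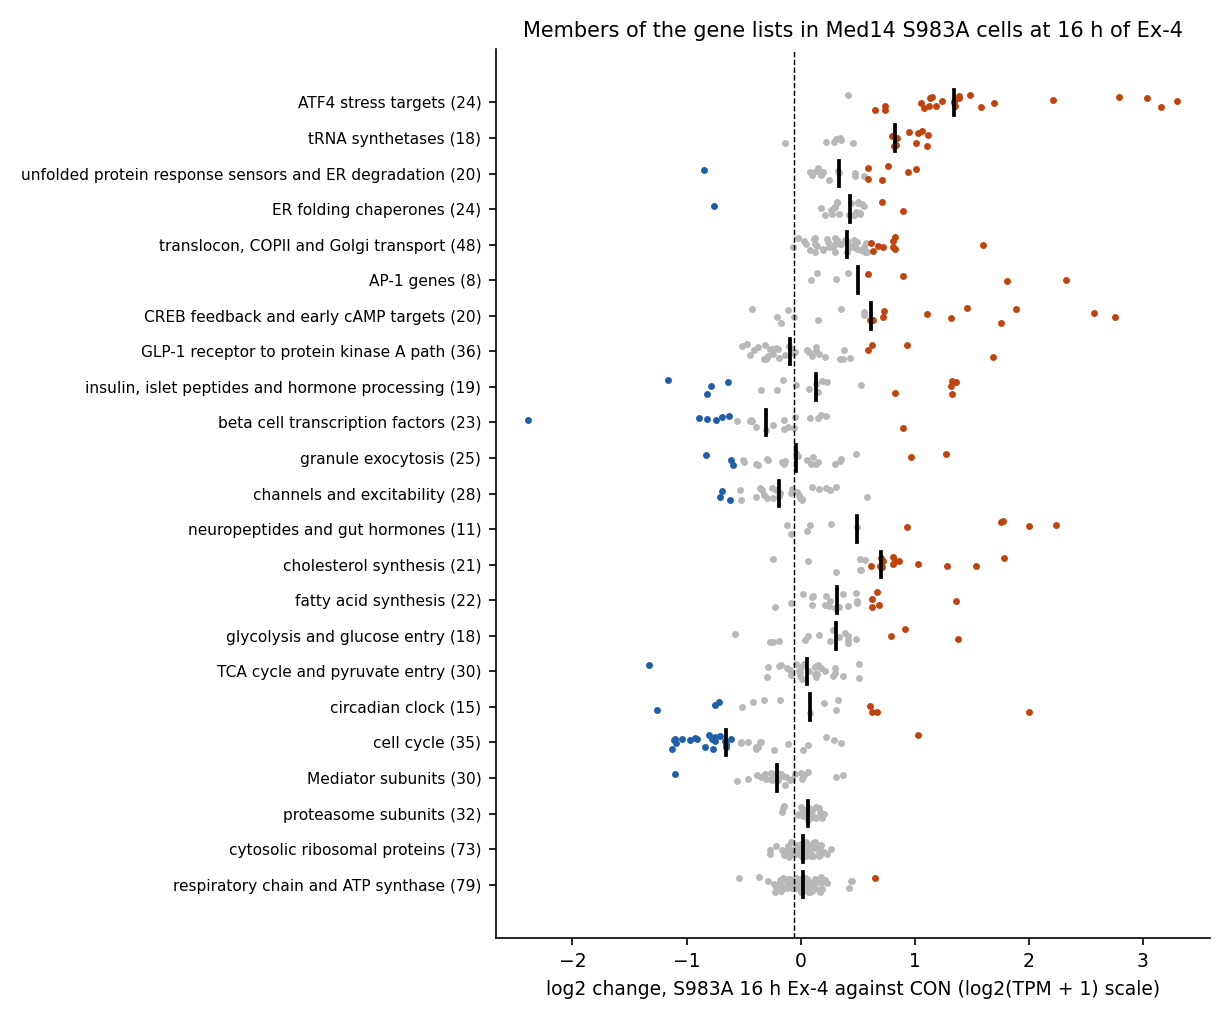
Log2 change at 16 h of Ex-4 against CON in Med14 S983A cells for the tested members of 23 gene lists, whose sizes stand in parentheses. Each point is a gene (red called higher, blue called lower, grey not called), black bars are list medians and the dashed line is the median of all genes tested, −0.06; 23 of 24 ATF4 targets are red and 19 of 35 cell cycle genes blue.

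Of 34 genes that the study names, 13 were higher and 3 lower at 16 h (median 0.17). These names were partly chosen on these libraries and their counts are not independent evidence. Bcar1, an adaptor of cell adhesion, fell from 38.0 and 40.3 TPM to 23.04 and 22.99 TPM (log2 change −0.74). The genes Grk3 (−0.07), Pdk1 (−0.01), Ogdh (0.13), Sdhc (−0.12), Sucla2 (0.30), Mdh1 (0.07), Slc25a1 (0.37), Cpt1a (−0.24) and Osbpl6 (−0.06) did not reach the fold threshold. Kdr, Plat and Acadsb stayed under 1 TPM in all 4 libraries.

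In TPM, Med14 S983A cells responded more than WT cells to 16 h of Ex-4 for most ATF4 targets and some early cAMP genes. The response was smaller for 11 of 21 cholesterol synthesis genes. With ERCC scaling a larger change was called for only 11 of 24 ATF4 targets, and a smaller one for 19 cholesterol genes. The difference of the 16 h responses, S983A minus WT, was tested as an interaction over the 8 libraries concerned, and the 2 responses share no library. The difference was higher for 558 genes (5.43%) and lower for 186 (1.81%), with a median of 0.09. This balance rested on the scaling. It was 330 and 378 after centring, and 138 and 1703 with ERCC scaling, for which the median was −0.33, so that 75.0%, 46.6% and 7.496% of calls were higher. ERCC made up 0.864%, 0.953%, 0.753% and 0.735% of fragments in the 2 WT CON and 2 WT 16 h libraries, and its part in the difference was not tested.

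**Figure D5:**
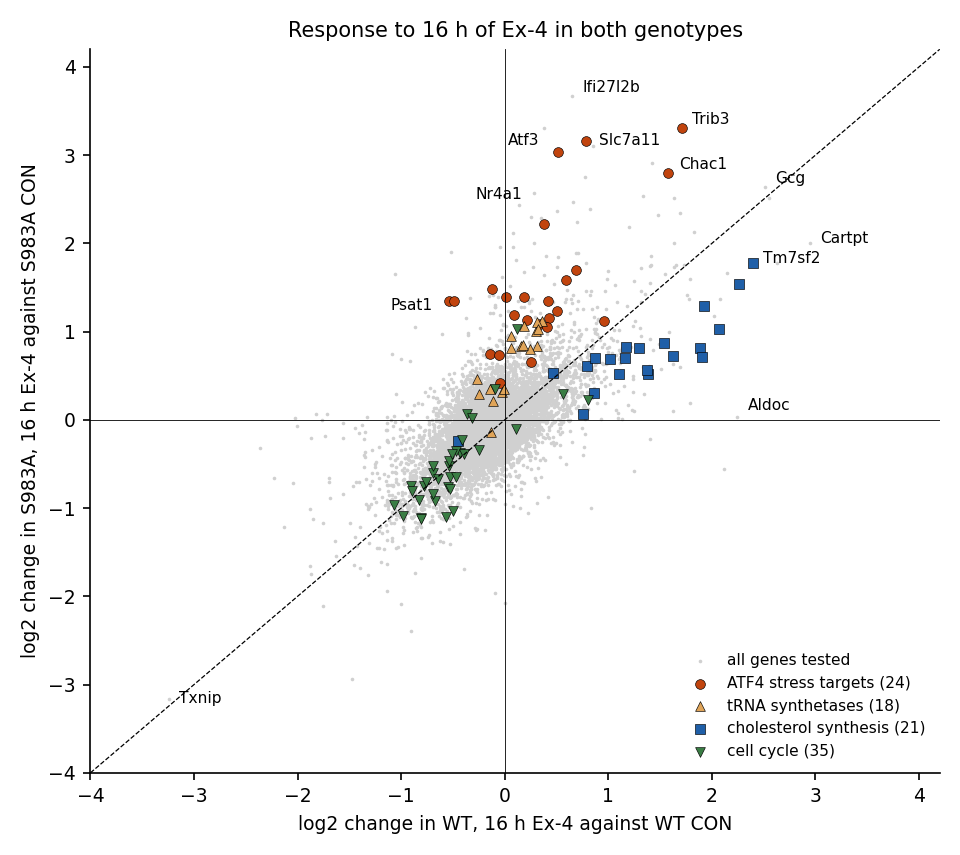
Log2 change at 16 h of Ex-4 in WT (horizontal) and in Med14 S983A (vertical) for the 10275 genes tested, on the log2(TPM + 1) scale, with members of 4 lists marked and the dashed line where both are equal. ATF4 targets lie above the line, with medians of 1.34 in S983A and 0.36 in WT, and 19 of 21 cholesterol genes below it (0.71 and 1.3), while cell cycle genes lie around it (−0.65 and −0.54).

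Of 24 ATF4 targets, 21 had a larger change in S983A than in WT and 0 a smaller one, 20 after centring and 11 with ERCC scaling. Psat1 had 85.8 and 85.1 TPM in WT CON and 56.7 and 60.0 TPM in WT at 16 h, against 139 and 127 TPM and 341 and 336 TPM in S983A, a difference of the log2 changes of 1.89 (SE 0.07, limma adjusted p 2.62e-16). The level was lower at 16 h in WT and higher in S983A. Atf3 had 3.81 and 3.86 TPM and 5.36 and 6.51 TPM in WT (difference 2.52, SE 0.14, limma adjusted p 4.96e-13), and Slc7a1 39.99 and 40.2 TPM and 35.8 and 37.7 TPM (difference 1.61). Trib3 had 1.60 and 2.30 TPM and 8.32 and 8.81 TPM in WT, where it rose too, and the difference was 1.60 (limma adjusted p 8.82e-10). CON levels of Trib3 and Chac1 were already higher in S983A than in WT, with 3.04 and 2.65 TPM of Chac1 in WT CON. For Atf4 the difference was 0.99, called in TPM and after centring and not with ERCC scaling, and for Atf5 it was 0.17 and not called. Of the 18 tRNA synthetases, 10 had a larger change in S983A, 6 after centring and 0 with ERCC scaling.

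Of 20 CREB list genes, 8 had a larger change in S983A and 0 a smaller one, and of 8 AP-1 genes 4 had a larger change, with 6 and 4 after centring and 4 and 1 with ERCC scaling. Nr4a1 had 17.3 and 18.4 TPM in WT CON and 21.4 and 22.2 TPM in WT at 16 h (difference 2.29, SE 0.12, limma adjusted p 2.21e-13). Crem had 11.7 and 10.6 TPM and 20.2 and 19.3 TPM in WT (difference 1.98), and Fos 2.16 and 1.91 TPM and 2.24 and 2.32 TPM (difference 1.70). In WT at 16 h Nr4a1 and Fos were not called against CON, and Crem rose by 0.77 there on the log2 scale, against 2.75 in S983A. Ifi27l2b had the largest difference of all genes of at least 10 TPM, 3.02, with 6.61 and 6.31 TPM in WT CON and 11.2 and 10.2 TPM in WT at 16 h. Myc, a growth regulator, had 69.4 and 70.5 TPM in WT CON and 36.2 and 39.7 TPM in WT at 16 h, against 55.5 and 56.5 TPM and 115 and 119 TPM in S983A (difference 1.91, limma adjusted p 2.62e-16). It fell in WT and rose in S983A. Slc16a1 (1.72), Nfil3 (1.72) and Syt4 (1.10) were among the listed genes with larger changes in S983A under each scaling.

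Of the 21 cholesterol genes, 0 had a larger change and 11 a smaller one than in WT, 15 after centring and 19 with ERCC scaling, and 19 were called higher in WT, against 3.53% of all genes there, and 14 in S983A, while none was called lower in WT, against 8.28% of all genes. Fdps had 296 and 303 TPM in WT CON and 1252 and 1266 TPM in WT at 16 h (difference −1.04, SE 0.04, limma adjusted p 3.65e-15). Hmgcs1 had 80.8 and 78.6 TPM and 298 and 297 TPM in WT (difference −1.07). The CON levels of Fdps were lower in WT than in S983A, and those of Hmgcs1 overlapped. Among 19 insulin and processing genes the signed difference was higher for 1 and lower for 5. It was higher for 0 and lower for 8 after centring, and 0 and 10 with ERCC scaling. A lower difference can be a smaller rise or a larger fall. Ins1 rose in WT from 34501 and 33716 TPM to 58758 and 57777 TPM (difference −0.62, limma adjusted p 6.48e-07). Pam rose less in S983A than in WT (1.37 against 2.08, difference −0.71). Pcsk1 fell more in S983A (−1.16 against −0.43, difference −0.73). Chgb was the member with a higher difference in TPM. Among the largest differences downward were those of the uncharacterised LOC691995 (−2.67), the glycolytic enzyme Aldoc (−2.21), Nxph4 (−1.83) and Mustn1 (−1.62). Aldoc had 2.81 and 2.76 TPM in WT CON and 17.001 and 16.8 TPM in WT at 16 h, but 15.2 and 14.3 TPM and 14.95 and 15.4 TPM in S983A, where the groups overlapped. For Txnip the difference was 0.08 (SE 0.12, limma adjusted p 0.636) and for Gcg 0.12 (SE 0.10), neither called. For 35 cell cycle genes the signed difference was higher for 1 and lower for 0, although it was lower for 3 after centring and 12 with ERCC scaling. Ccnb2, lower after centring, fell more in S983A (−1.10) than in WT (−0.56). For 24 ER chaperones, the difference was lower for 1 in TPM and for 14 with ERCC scaling. For 11 neuropeptide genes it was higher for 2 and lower for 2, and Tac1 differed by 1.54 and Cartpt by −0.94.

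Between 8 and 16 h of Ex-4, 11 of 24 ATF4 targets rose further and 17 of 35 cell cycle genes fell. In Med14 S983A cells, 128 genes (1.25%) were higher and 279 (2.72%) lower at 16 h than at 8 h, a comparison without CON libraries. The counts were 151 and 256 after centring and 84 and 451 with ERCC scaling, so that 31.5%, 37.1% and 15.7% of calls were higher. None of the ATF4 targets was lower. Trib3 had 35.1 and 39.1 TPM at 8 h and 86.5 and 87.0 TPM at 16 h (log2 change 1.21, SE 0.09, limma adjusted p 1.72e-10), Atf3 9.20 and 10.9 TPM and 35.1 and 31.2 TPM (1.63), and Chac1 46.3 and 51.5 TPM and 94.6 and 90.8 TPM (0.91). Their 8 h libraries lay between CON and 16 h. Ifi27l2b (2.23) and Casp4 (1.40) also rose further, as did Tm7sf2, from 46.3 and 50.2 TPM to 132 and 129 TPM (1.42). Of the early cAMP lists, 0 of 20 CREB genes and 0 of 8 AP-1 genes were called.

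None of the 35 cell cycle genes was higher at 16 h than at 8 h. Plk1 had 153 and 148 TPM at 8 h against 63.6 and 70.2 TPM at 16 h (log2 change −1.16, limma adjusted p 5.54e-16), and Ccna2 174 and 166 TPM against 79.5 and 79.8 TPM (−1.09). At 8 h they were close to the CON levels of 143 and 151 TPM and 177 and 165 TPM. Fam83d, of the mitotic spindle, had a log2 change of −1.32. Mt1 had 132 and 113 TPM at 8 h and 16.2 and 24.5 TPM at 16 h (−2.56), and Enpp2 137 and 130.4 TPM and 39.3 and 38.7 TPM (−1.75) with CON levels not far above 8 h. Derl3 had 24.9 and 26.1 TPM in CON, 36.4 and 37.2 TPM at 8 h and 14.3 and 13.3 TPM at 16 h (−1.36), above CON first and below it later. Clock genes moved both ways, with the repressor Nr1d1 at 5.82 and 5.24 TPM at 8 h, 26.5 and 27.8 TPM at 16 h (2.11) and 24.9 and 26.3 TPM in CON, and Cry1 at −1.38. Of 24 ER chaperones 4 were lower, among them Hspa5, which had 3569.9 and 3522 TPM at 8 h and 2422 and 2258 TPM at 16 h (−0.60). Of 23 beta cell factors 1 was higher (Nr0b2, 0.66) and 1 lower, and of 19 insulin and processing genes 1 was lower (Pcsk1, −0.68).

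Against 16 h of FSK and in TPM, more beta cell genes were higher than lower with Ex-4, and the early cAMP genes called were all lower. In Med14 S983A cells Ex-4 gave a higher level than FSK for 1085 genes (10.6%) at 16 h and a lower one for 592 (5.76%). The counts were 859 and 789 after centring and 528 and 2054 with ERCC scaling, so that 64.7% of calls were higher in TPM, 52.1% after centring and 20.4% with ERCC scaling. The agents were used at 10 nM and 10 µM, doses that cannot be matched. The largest differences upward were those of Scgn, a calcium sensor of islet cells, with 96.5 and 99.2 TPM in FSK and 1036 and 985 TPM in Ex-4 (log2 difference 3.36, SE 0.05, limma adjusted p 1.45e-25), the Wnt inhibitor Wif1 (3.25), Baiap3 (3.12), a regulator of dense-core vesicles, Scg2 (3.10) and Fxyd6 (2.64). In CON, Scgn had 1294 and 1125 TPM and Scg2 1378 and 1335 TPM, so Ex-4 left both near CON while FSK libraries were far below it. The largest downward were those of Fst, follistatin, which had 96.6 and 89.5 TPM in FSK and 2.70 and 2.18 TPM in Ex-4 (−4.78), Fxyd5 (−4.24), Mt2A (−3.74), Smim3 (−3.15) and Vgf (−3.11). Mt2A and Mt1 are close copies, so their reads may be shared.

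Among 23 beta cell factors, 13 were higher and 1 lower under Ex-4, against 10.6% and 5.76% of all genes. Of 19 insulin and processing genes 11 were higher and 2 lower. The list medians were 0.64 and 1.14, beside 0.04 over all genes. List counts against FSK are in TPM and were not taken under the other scalings, which moved the balance over all genes. Ins2 had 6719 and 6724 TPM in FSK and 20103 and 20500 TPM in Ex-4 (log2 difference 1.59, SE 0.06, limma adjusted p 7.12e-18). Pdx1 had 118 and 111 TPM and 194 and 203 TPM (0.79), Neurod1 29.6 and 29.9 TPM and 124 and 122 TPM (2.01), and Slc30a8 154 and 158 TPM and 530.2 and 479 TPM (1.68). Ex-4 libraries lay between FSK and CON for these 4 genes. Ins1 had 41155 and 41811 TPM in FSK (0.12, not called). Of 28 channel genes 15 were higher and 2 lower, and of 18 glycolysis genes 5 were higher and 10 lower (median −0.77), Slc16a1 at −1.80 and Gapdh at −0.81.

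Among 20 CREB genes the level under Ex-4 was above that under FSK for 0 and below it for 8, and among 8 AP-1 genes 0 and 4. Over all genes the shares were 10.6% above and 5.76% below. Crem had 95.0 and 97.9 TPM in FSK and 38.8 and 35.9 TPM in Ex-4 (log2 difference −1.35, limma adjusted p 2.40e-13), Rgs2 37.8 and 35.2 TPM and 15.2 and 12.9 TPM (−1.32), and Fosl2 37.9 and 33.8 TPM and 11.3 and 11.4 TPM (−1.58). FSK libraries were the higher in each. The ATF4 list was closer, with 0 of 24 higher and 7 lower. Trib3 had 142 and 146 TPM in FSK (−0.73), Ddit3 a difference of −0.73, Chac1 88.5 and 95.4 TPM (0.01, limma adjusted p 0.902) and Atf4 1515 and 1513 TPM (−0.45). Chac1 differed by less than the spread between replicates. Cell cycle genes (0 higher and 2 lower of 35) and cholesterol genes (0 and 2 of 21) also gave few calls, with medians of 0.02 and 0.05.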

How the data were processed

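Bulk RNA-seq was made from total RNA of 28 INS-1 libraries in 14 groups of 2, with ERCC RNA spiked in. Reads had been mapped by the authors to rn6 plus the ERCC sequences (STAR 2.5.3a), and they deposited TPM per RefSeq transcript from exon counts (HOMER 4.11.1), without spike-in scaling. They also deposited raw counts of 92 ERCC sequences. The study's own test was run on gene counts (DESeq2 1.24.0), so the TPM-based test here differs from it.

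Of 19223 lines, ERCC sequences and 1676 transcripts with a lower mean TPM than another of the same symbol were dropped, leaving 17455 symbols, of which 10275 with a mean of at least 1 TPM were tested. limma 3.58.1 in R 4.3.3 (group means, empirical Bayes with trend) was fitted to log2(TPM + 1) over all 28 libraries, and p-values were adjusted by Benjamini-Hochberg over all genes tested. Fold changes are on that scale, which understates changes of low genes. TPM values times transcript length were scaled to the deposited ERCC counts, at 2 reads a fragment. This gave whole read numbers, within 0.05 beyond the rounding of the TPM, for 100% of 135800 low values tested, against 22.7% by chance. edgeR 4.0.16 (quasi-likelihood) and DESeq2 1.42.0 were run on these recovered fragments as alternatives. On simulated data for 16 h against CON with 10275 genes, limma recovered 99 of 100 genes changed 2-fold and 100 of 100 changed 3-fold, with 1 wrong call. Depth was 46119925 to 50597273 fragments in the 4 libraries.

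Groups followed the labels. Genes named are Med14, those the study names, the 12 largest rises and falls at 16 h against CON and the 5 largest each way in other comparisons among called genes of at least 10 TPM, and from each list up to 4 called members with the largest change and 3 with the highest level. Others (Mthfd2, Vars1, Ddit3, Nkx6-1, Slc3a2, Slc7a5, Asns, Aldh1l2, Qars1, Cth, Sesn2, Cdk6, Pcsk1, Scg3, Shmt2, Nnat, Mars1, Eif2ak3, Slc7a1 and Pcsk2) were chosen after their values were seen. Members and lists were chosen with earlier results of these data known. A few genes the rule picked are not reported here.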

Additional observations from a re-analysis of the deposited data

Results flagged for a closer look

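For 81 of the 184 genes named here the 16 h response to Ex-4 differed between Med14 S983A and WT cells in a test of the difference itself (limma, adjusted p under 0.05 and fold above 1.5), 50 upward and 31 downward. Over all 10275 genes tested, 5.43% were called higher and 1.81% lower. Some of the 184 were named for a large difference in this same test, and others after their values were seen. The count of 81 thus depends on how genes were chosen and is not a rate. Of these, 75 were also called after centring and 58 with ERCC scaling. Not called with ERCC scaling were Atf4, Ddit3, Shmt2, Slc7a5, Slc3a2, Gdf15, Ern1, Nr0b2, Akap1, Jun, Junb and Fosl2. Nor were the synthetases Yars1, Eprs, Sars1, Nars1 and Vars1. Mars1, Tars1, Pde1c, Pde10a, Chgb and Creb3l1 were called neither after centring nor with ERCC scaling. Values are S983A minus WT in TPM, on the log2 scale, and no explanation was tested. Among ATF4 targets the response was higher for Atf3 (2.52), Slc7a11 (2.37), Psat1 (1.89), Aldh1l2 (1.83), Slc7a1 (1.61), Trib3 (1.60), Cth (1.38), Chac1 (1.21), Asns (1.20), Mthfd2 (1.10), Ddit3 (1.01), Atf4 (0.99), Shmt2 (0.92), Slc7a5 (0.75) and Slc3a2 (0.73). Among tRNA synthetases it was higher for Yars1 (0.88), Eprs (0.87), Sars1 (0.80), Nars1 (0.76), Vars1 (0.73), Mars1 (0.71) and Tars1 (0.71). In the CREB, AP-1 and protein kinase A lists it was higher for Nr4a1 (2.29), Crem (1.98), Fos (1.70), Sik1 (1.19), Junb (0.96), Akap1 (0.87), Fosl2 (0.84), Jun (0.73), Pde1c (0.69) and Pde10a (0.63). Among sterol genes the response was lower for Hmgcs1 (−1.07), Fdps (−1.04), Insig1 (−0.84), Msmo1 (−0.72), Cyp51 (−0.64) and Tm7sf2 (−0.61). For hormone, granule and beta cell factor genes it was higher for Tac1 (1.54), Syt4 (1.10), Nr0b2 (0.84) and Chgb (0.67) and lower for Rph3a (−1.86), Cartpt (−0.94), Cck (−0.85), Mnx1 (−0.78), Pcsk1 (−0.73), Pam (−0.71), Pcsk2 (−0.70), Nnat (−0.69), Rab3b (−0.64), Ins1 (−0.62), Nkx6-1 (−0.62) and Snap25 (−0.61). In the remaining lists the difference was higher for Slc16a1 (1.72), Nfil3 (1.72), Hspa12a (1.33), Cyp4a8 (1.11), Ern1 (0.93), Cdk6 (0.91) and Creb3l1 (0.61) and lower for Aldoc (−2.21), Plat (−1.60), Derl3 (−0.91) and Pdk2 (−0.59). Plat had 0.058 and 0.015 TPM in S983A CON and 0.211 and 0.149 TPM in S983A at 16 h. In WT it had 0.955 and 1.083 TPM in CON and 5.51 and 6.493 TPM at 16 h. The 1 TPM added before the log understates changes at such low levels. The difference for Plat therefore does not show that the relative responses were unequal. Of the acinar marker list it was lower for Bhlha15 (−0.74). For genes of no list it was higher for Ifi27l2b (3.02), Casp4 (2.30), Myc (1.91), Trpa1 (1.81), Tent5a (1.57), Fxyd5 (0.94) and Gdf15 (0.88) and lower for LOC691995 (−2.67), Mt2A (−2.08), Nxph4 (−1.83), Mustn1 (−1.62), Mt1 (−1.46), Nrtn (−1.08), Tff3 (−0.87) and Enpp2 (−0.80). Mt2A was at 0 TPM in WT, both in CON and at 16 h, so its difference is the S983A change alone. No WT response could be measured for it. Fxyd5 stayed under 1 TPM in both genotypes and Rph3a in WT, so their relative responses cannot be compared either.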

How the results depend on the processing

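Of 4040 values of the 184 named genes under the alternatives tried at 16 h against CON, 3799 kept direction and call, 110 lost the call, 36 gained it and 95, of 25 genes, changed sign. For 16 h against CON the count of lower genes was 1281 with DESeq2 on ERCC size factors, and without a fold minimum 2529 were higher and 3830 lower. Leaving out 1 library gave 455 to 527 higher and 711 to 803 lower. In alternatives chosen after seeing the data, ERCC scaling without 1 library gave 298 to 471 higher and 792 to 1522 lower, with 1167 lower without CON replicate 1. For the difference between S983A and WT, DESeq2 on ERCC size factors gave 147 higher and 1786 lower, ERCC scaling 138 and 1703, and centring 330 and 378. There edgeR gave 427 lower, DESeq2 with median-of-ratios 422 lower, and no fold minimum 2995 higher and 1322 lower. Leaving out 1 library gave 509 to 663 and 174 to 215. For 16 h against 8 h, ERCC scaling gave 84 higher and 451 lower, DESeq2 on ERCC size factors 629 lower, edgeR 227 higher, DESeq2 with median-of-ratios 223 higher, and no fold minimum 1803 and 2499. Leaving out 1 library gave 132 to 144 and 276 to 317. Against FSK, ERCC scaling gave 528 higher and 2054 lower, DESeq2 on ERCC size factors 672 and 2258, and no fold minimum 3901 and 2991. Leaving out 1 library gave 1043 to 1158 and 578 to 619. Without a fold minimum more genes pass by construction, and for the other settings the cause was not tested.

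Of the values that changed sign, 0 were called in either fit, and as reported, the log2 changes of these genes lay between −0.088 and 0.31. The log2 change was −0.013 for Gnas, −0.0044 for Snap25, −0.073 for Med14, −0.088 for Cdk4, −0.073 for Srebf1, −0.023 for Smim3, −0.024 for Nr1d1, −0.066 for Aldoc, −0.038 for Mdh1 and −0.10 for Rplp0 with ERCC scaling. It was −0.11 for Gnas, −0.052 for Ins1, −0.12 for Med14, −0.11 for Cdk4, −0.13 for Srebf1, −0.028 for Iapp, −0.083 for Batf3, −0.076 for Smim3, −0.091 for Nr1d1, −0.054 for Aldoc, −0.029 for Mdh1, 0.014 for Kdr and −0.16 for Rplp0 with ERCC scaling without CON replicate 1. It was −0.21 for Gnas, −0.067 for Ins1, −0.085 for Snap25, −0.14 for Med14, −0.23 for Cdk4, −0.14 for Srebf1, −0.063 for Ogdh, −0.078 for Xbp1, −0.031 for Jund, −0.028 for Iapp, −0.16 for Batf3, −0.079 for Smim3, −0.17 for Nr1d1, −0.20 for Aldoc, −0.14 for Mdh1, −0.24 for Rplp0 and −0.031 for Pcsk2 with ERCC scaling without 16 h replicate 2. It was −0.0030 for Fosl1, −0.0033 for Med14, −0.0014 for Srebf1, 0.020 for Kdr and 0.0086 for Pdk1 with ERCC scaling without 16 h replicate 1. It was 0.0062 for Osbpl6, 0.0083 for Grk3, 0.056 for Kdr and 0.061 for Pdk1 with centring without CON replicate 1. It was 0.0046 for Osbpl6, 0.11 for Grk3, 0.025 for Dusp1, 0.060 for Sct, 0.0076 for Kdr and 0.028 for Pdk1 with centring without 16 h replicate 2. It was −0.023 for Acadsb, −0.027 for Snap25, −0.021 for Med14, −0.070 for Cdk4, −0.017 for Srebf1, −0.078 for Aldoc, −0.046 for Mdh1 and −0.048 for Rplp0 with ERCC scaling without CON replicate 2. It was 0.0012 for Dusp1 and 0.056 for Pdk1 with DESeq2 with median-of-ratios. It was 0.00043 for Dusp1, 0.051 for Kdr and 0.052 for Pdk1 with centring. It was 0.0042 for Dusp1, 0.018 for Sct, 0.046 for Kdr and 0.042 for Pdk1 with centring without CON replicate 2. It was −0.072 for Med14, −0.077 for Cdk4, −0.068 for Srebf1, −0.032 for Smim3, −0.014 for Nr1d1, −0.061 for Aldoc, −0.030 for Mdh1 and −0.092 for Rplp0 with DESeq2 on ERCC size factors. It was 0.094 for Kdr and 0.076 for Pdk1 with centring without 16 h replicate 1. It was 0.039 for Pdk1 with edgeR. Leaving out 1 library gave −0.0025 to 0.18 for Fosl1, −0.20 to 0.065 for Grk3, −0.0027 to 0.15 for Acadsb, −0.012 to 0.076 for Med14, −0.011 to 0.084 for Srebf1, −0.0019 to 0.075 for Aldoc, −0.20 to 0.020 for Sct, −0.033 to 0.018 for Kdr, −0.018 to 0.033 for Rplp0 and −0.037 to 0.024 for Pdk1.

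The labels give replicate numbers without saying whether same-numbered libraries belong together. Same-numbered libraries of 16 h and CON deviated with r = 0.236, and those of the other pairs of groups with −0.237 to 0.194. With the replicate number as a block, 486 genes were higher and 735 lower at 16 h against CON, 558 and 186 in the difference between genotypes, 128 and 279 against 8 h, and 1085 and 592 against FSK. With each replicate number present in every group, such a block leaves every log2 change as it was. It can move only p-values, so these counts do not decide whether libraries were paired. With 2 libraries a group, spread is borrowed from all groups, and a library left alone is assumed to vary like the others.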
